A study of Mus musculus with 36 samples.

Results

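The medium spiny neurons of the striatum are marked by the 6 genes described here, Drd1a (now named Drd1), Drd2, Adora2a, Ppp1r1b, Tac1 and Rgs9. The members were the genes whose symbol stood in the annotation column of the array table, 6 of the 30869 symbols on the array, and 10 probes carried these symbols: 3 for Ppp1r1b, 2 each for Tac1 and Rgs9, and 1 each for Drd1a, Drd2 and Adora2a. Total RNA of the nucleus accumbens (NAc), the hippocampus (HIP) and the prefrontal cortex (PFC) was measured on 36 Illumina MouseWG-6 BeadChip arrays. The animals were adult male wild-type C57BL/6J mice, all given 10 daily intraperitoneal injections and sampled 1 h after the last. They received vehicle (a mix of saline, PEG-400 and DMSO), Cpd-60 at 45 mg/kg (a benzamide that inhibits the histone deacetylases HDAC1 and HDAC2), SAHA at 25 mg/kg (a hydroxamate with a broader range of HDAC targets) or CI-994 at 10 mg/kg (a benzamide HDAC inhibitor). Each array held RNA pooled from 2 mice, each of the 4 treatments had 3 pools, and the 3 regions of a pool came from the same mice.

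Medium spiny neurons are the GABAergic projection neurons that make up most of the neurons of the striatum, of which the NAc is the ventral part. They fall into a direct pathway class, known for the dopamine D1 receptor, substance P and dynorphin, and an indirect pathway class, known for the dopamine D2 receptor, the adenosine receptor encoded by Adora2a and enkephalin. The D1 and adenosine receptors of these cells raise cyclic AMP, the D2 receptor lowers it, and the phosphoprotein DARPP-32, product of Ppp1r1b, passes the signal on by inhibiting the phosphatase PP1 once it has been phosphorylated. Rgs9 encodes a regulator of G protein signalling that shortens signals from receptors such as D2, and Tac1 encodes the precursor of substance P and neurokinin A.

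The arrays had a median raw intensity of 82.2 to 108.3 and detected 31.9 to 43.3% of the 45281 probes (detection p of at most 0.01, the array's own comparison with negative control probes). Intensities were quantile normalized over the 36 arrays and all levels below are log2 of the normalized intensity, so that a difference of 1 is a 2-fold difference in intensity. Levels were compared within a probe, never between probes. The number of arrays limits the precision, and p-values measure the spread between pools. In tissue RNA, fewer cells of a type and less RNA per cell cannot be told apart. Markers set the PFC and the HIP apart from the NAc. The 5 detected markers of cortical glutamatergic neurons averaged 8.72 to 8.90 in the vehicle pools of the PFC and 6.84 to 7.05 in those of the NAc. The 2 detected markers of hippocampal neurons averaged 8.69 to 9.09 in the HIP and 6.92 to 7.03 in the NAc. Cortical markers were also present in the vehicle HIP, where Slc17a7 averaged 10.9, Neurod2 10.3, Tbr1 7.66 and Emx1 6.77, so that they do not mark the PFC alone.

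The genes lie on 5 chromosomes of the GRCm38.p6 assembly: Drd1 at chr13:54051183-54055658, Drd2 at chr9:49340360-49408177, Adora2a at chr10:75316877-75334792, Ppp1r1b at chr11:98348406-98357796, Tac1 at chr6:7555061-7562978 and Rgs9 at chr11:109225348-109298181. Since the 6 genes were high in the same region, the sequence directly upstream of the RefSeq gene is shown for the 4 members whose promoter was listed, written 5′ to 3′ in the direction of the gene. Capitals mark TGACG (the core of the site of the cyclic AMP response factor CREB), GGGCGG (the GC box bound by Sp1) and TATAAA (the TATA box), each looked for on both strands, and none of the marked stretches overlap.
Drd1, chr13:54055659-54055908, minus strand: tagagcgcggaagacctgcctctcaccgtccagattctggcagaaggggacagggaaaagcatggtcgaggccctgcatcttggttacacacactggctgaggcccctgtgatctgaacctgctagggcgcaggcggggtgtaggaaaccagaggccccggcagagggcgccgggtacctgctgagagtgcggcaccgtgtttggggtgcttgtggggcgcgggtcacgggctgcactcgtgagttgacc
Drd2, chr9:49340153-49340359, plus strand: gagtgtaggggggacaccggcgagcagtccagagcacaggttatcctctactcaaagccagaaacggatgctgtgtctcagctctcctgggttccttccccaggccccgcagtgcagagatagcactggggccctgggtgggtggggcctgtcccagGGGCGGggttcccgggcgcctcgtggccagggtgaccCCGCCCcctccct
Tac1, chr6:7554811-7555060, plus strand: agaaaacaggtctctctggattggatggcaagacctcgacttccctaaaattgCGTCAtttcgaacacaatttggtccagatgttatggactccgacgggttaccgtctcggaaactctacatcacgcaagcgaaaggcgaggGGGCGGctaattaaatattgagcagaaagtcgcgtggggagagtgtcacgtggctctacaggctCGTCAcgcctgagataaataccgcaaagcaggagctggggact
Rgs9, chr11:109298182-109298431, minus strand: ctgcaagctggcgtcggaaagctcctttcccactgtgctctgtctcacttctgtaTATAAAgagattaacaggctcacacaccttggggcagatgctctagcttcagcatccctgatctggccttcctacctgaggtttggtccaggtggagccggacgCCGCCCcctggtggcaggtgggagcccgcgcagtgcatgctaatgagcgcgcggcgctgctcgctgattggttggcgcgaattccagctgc
The Drd1 window of 250 bases was 64.0% G or C and held none of the 3 motifs. The Drd2 window of 207 bases was 67.6% G or C and held GGGCGG 2 times, once on each strand, whereas 26% of the 32851 RefSeq windows of that length held it. The Tac1 window held TGACG 2 times, both on the opposite strand and beginning 197 and 43 bases before the start of the gene, and GGGCGG 1 time, at 107 bases. TGACG was found in 17.8% of windows of 250 bases and GGGCGG in 32.7%. The Rgs9 window held GGGCGG 1 time on the opposite strand, and TATAAA 1 time at 195 bases before the start, a motif found in 12.4% of windows. No motif was common to the 4 windows, and a match is a stretch of letters, not a measured binding site.

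All 6 genes were higher in the NAc than in both other regions, on every array. The lowest of the 12 NAc arrays lay above the highest of the 24 PFC and HIP arrays for 6 of 6 genes and for 9 of their 10 probes, a separation found for 1.52% of 26594 probes. In the vehicle pools, the NAc exceeded the PFC for 6 of 6 genes at an adjusted p under 0.05 (limma, Benjamini-Hochberg over all probes), where 9.59% of the 22606 probes tested were higher, and exceeded the HIP for 6 of 6, where 9.6% were higher. The median log2 difference of the 6 was 3.43 against the PFC and 3.90 against the HIP, and the vehicle pools of the NAc lay above those of the PFC for 6 of 6 genes (17.4% of probes) and above those of the HIP for 6 of 6 (18.6%). In these vehicle fits Drd2 and Adora2a met the detection filter (p of at most 0.2 in all 3 pools of a group) through the NAc alone. Their calls set an NAc signal against levels near background. Each region was hybridized on BeadChips of its own, so that region and BeadChip cannot be told apart.

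**Figure D1:**
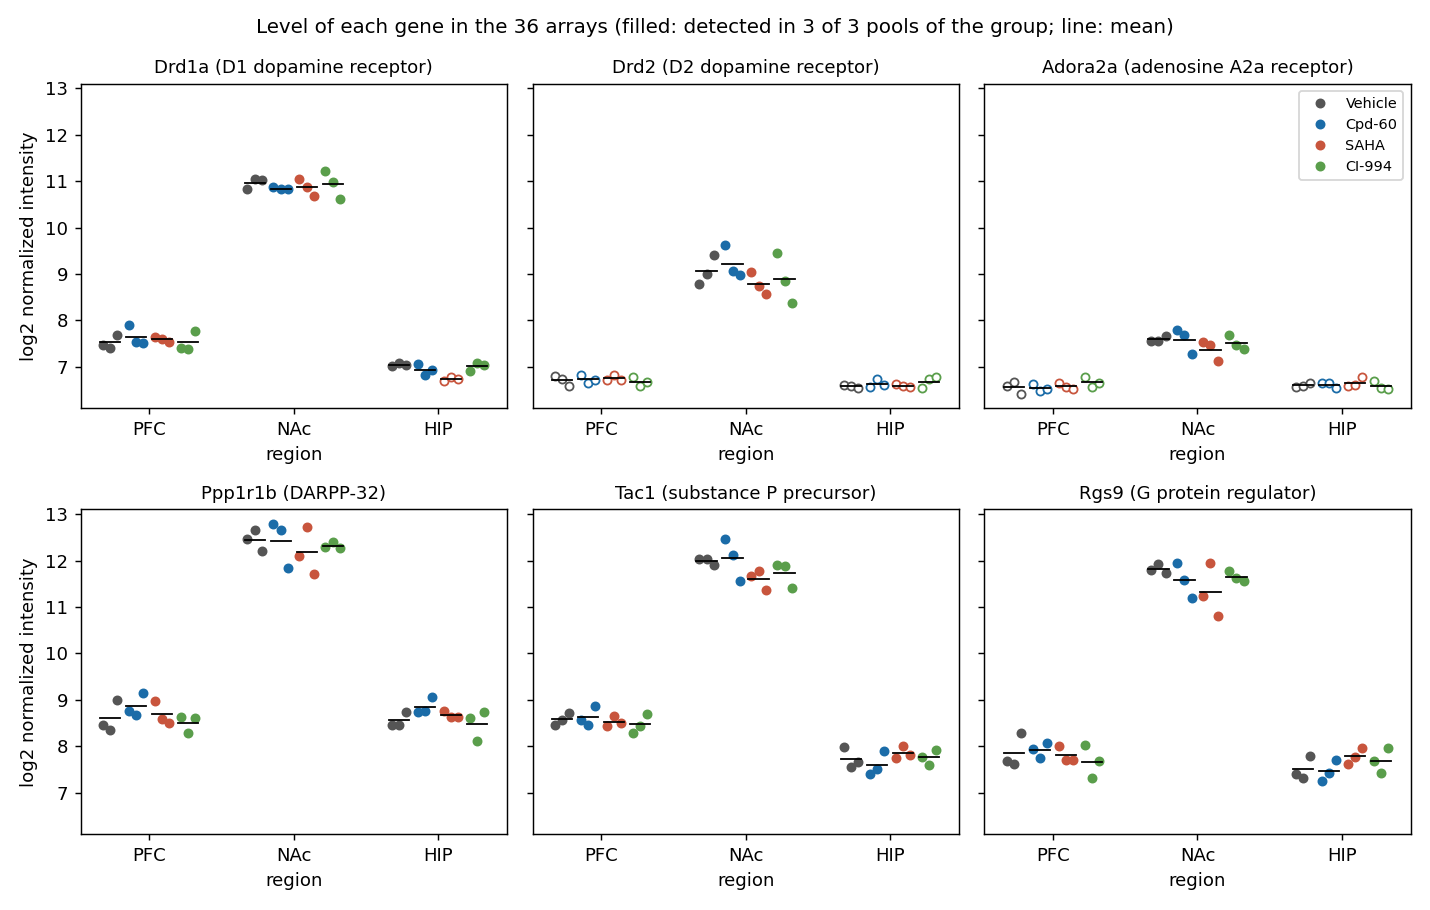
Normalized log2 intensity (vertical axis) of the 6 genes, each by its brightest probe, in the PFC, NAc and HIP under vehicle, Cpd-60, SAHA and CI-994; each point is 1 array of a pool of 2 mice, filled where all 3 pools of the group detected the probe, and the lines are group means. The 12 NAc arrays stand above all 24 PFC and HIP arrays for every gene.

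Among the receptors, Drd1a was at 10.83, 11.04 and 11.03 in the 3 vehicle pools of the NAc, 7.47, 7.41 and 7.70 in the PFC and 7.01, 7.08 and 7.05 in the HIP. The 3 regions did not overlap, in the order NAc, PFC, HIP. The NAc was 10.8-fold above the PFC (log2 difference 3.44, SE 0.09; limma adjusted p = 1.73e-08) and 15.1-fold above the HIP (3.92, SE 0.09; adjusted p = 9.26e-09).

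Drd2, the receptor of the indirect pathway class, was at 8.79, 9.01 and 9.42 in the NAc, 6.81, 6.75 and 6.60 in the PFC and 6.61, 6.59 and 6.54 in the HIP. It was detected on all 12 NAc arrays but on 5 of 12 PFC arrays and 3 of 12 HIP arrays, and the PFC and HIP pools overlapped, so that Drd2 outside the NAc lay at the edge of detection. The NAc was 5.12-fold above the PFC (log2 difference 2.36, SE 0.13; limma adjusted p = 1.71e-06), a ratio over a level that 1 of 3 vehicle PFC arrays detected. No vehicle HIP array detected it, and the NAc was at least 5.18-fold above the HIP (log2 difference 2.49, SE 0.13; limma adjusted p = 1.01e-06), taking the lowest signal of a detected probe as the level in the HIP.

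Adora2a, which shares these cells with Drd2 and acts against it on cyclic AMP, had the smallest difference of the 6. Its levels were 7.56, 7.56 and 7.67 in the NAc, 6.60, 6.67 and 6.42 in the PFC and 6.56, 6.58 and 6.66 in the HIP. It was detected on all 12 NAc arrays, on 1 of 12 PFC arrays and on 0 of 12 HIP arrays, and on none of the vehicle arrays outside the NAc. The NAc was at least 1.80-fold above the PFC (limma adjusted p = 9e-06) and at least 1.86-fold above the HIP (adjusted p = 1.03e-05), with measured log2 differences of 1.03 and 1.00 (SE 0.07 each).

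Of the genes that act downstream of the receptors, Ppp1r1b (DARPP-32) was at 12.47, 12.65 and 12.21 in the NAc, 8.45, 8.36 and 8.99 in the PFC and 8.47, 8.45 and 8.75 in the HIP. The PFC and HIP overlapped, and the gene was detected on all 36 arrays. The NAc was 14.4-fold above the PFC (log2 difference 3.85, SE 0.17; limma adjusted p = 3.3e-07) and 14.8-fold above the HIP (3.89, SE 0.17; adjusted p = 2.95e-07). The other probes of the gene, ILMN_2651660 and ILMN_1253473, were also higher in the NAc, by smaller folds: 4.67 and at least 3.17 against the PFC, and 4.64 and 3.20 against the HIP.

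Rgs9, the G protein regulator, was at 11.80, 11.93 and 11.73 in the NAc, 7.69, 7.61 and 8.29 in the PFC and 7.41, 7.31 and 7.78 in the HIP. Before background correction, it had the largest difference of the 6 in both comparisons. The difference was 15.5-fold against the PFC (log2 difference 3.96, SE 0.18, limma adjusted p = 3.36e-07) and 20.0-fold against the HIP (4.32, SE 0.18, limma adjusted p = 2.09e-07). Its other probe, ILMN_1216553, was at 8.48, 8.40 and 8.24 in the NAc and was detected on all 12 NAc arrays and on 0 of the 24 others, with the NAc at least 3.09-fold above the PFC and at least 3.19-fold above the HIP. Which transcript of Rgs9 or Ppp1r1b each probe matches is not given in the sources used here.

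Tac1, the peptide precursor of the direct pathway class, was at 12.04, 12.04 and 11.91 in the NAc, 8.46, 8.55 and 8.72 in the PFC and 7.99, 7.54 and 7.65 in the HIP. The 3 regions did not overlap. The NAc was 10.7-fold above the PFC (log2 difference 3.42, SE 0.11; limma adjusted p = 8.06e-08) and 19.3-fold above the HIP (4.27, SE 0.11; adjusted p = 1.45e-08). The other Tac1 probe, ILMN_1219905, was detected on 0 of 36 arrays and was not tested.

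**Figure D2:**
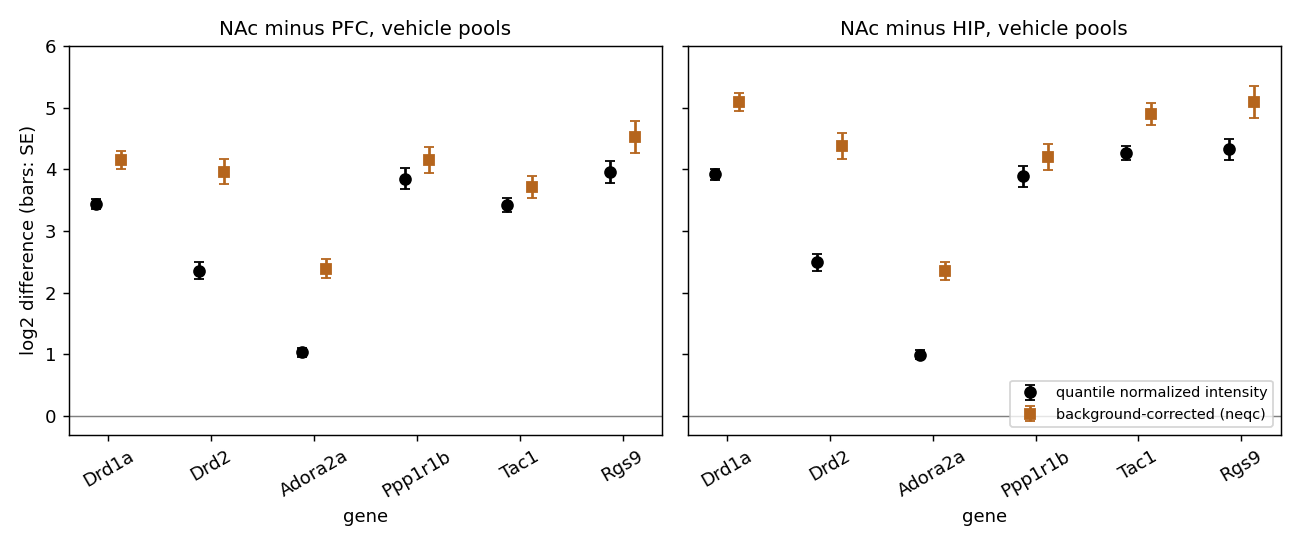
Log2 difference between the NAc and the PFC and between the NAc and the HIP in the vehicle pools, for the brightest probe of each gene. Circles are quantile normalized intensities, squares are background-corrected ones (neqc), and bars are standard errors from limma. All 12 differences shown as circles lie above 0, from 1.00 for Adora2a to 4.32 for Rgs9. The squares of Drd2 and Adora2a rest on PFC and HIP levels mostly not detected, and the text gives them no ratio.

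The deposited intensities include the background, and its correction gave wider folds. With normexp background correction (limma's neqc), the NAc to PFC ratio was 17.8 for Drd1a, 17.7 for Ppp1r1b, 13.1 for Tac1 and 22.9 for Rgs9. The NAc to HIP ratio became 34.1 for Drd1a and Rgs9, 29.7 for Tac1 and 18.4 for Ppp1r1b. Drd2 and Adora2a, detected on at most 1 of 3 vehicle arrays of the PFC and on 0 of 3 of the HIP, are given no corrected ratio. The folds above are on the scale of uncorrected intensity.

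Outside the striatum, Tac1 and Drd1a were higher in the PFC than in the HIP. Rgs9 and Ppp1r1b did not pass the test, and Drd2 and Adora2a were near background in both regions. Tac1 was 1.80-fold higher in the PFC (log2 difference 0.85, SE 0.11; limma adjusted p = 0.000674) and Drd1a 1.40-fold higher (0.48, SE 0.09; adjusted p = 0.00333), 2 of 6 genes where 13.9% of all probes were higher. Without pool 2, Drd1a did not pass (limma adjusted p = 0.0560). Rgs9 differed by 0.36 (SE 0.18; limma adjusted p = 0.155, and 0.0123 without pool 3, the highest vehicle pool of the PFC). Ppp1r1b differed by 0.04. Drd2 and Adora2a entered this fit through their NAc signal alone, so it could not show whether they differed between the PFC and HIP. Their measured differences were 0.13 and -0.04. Drd2 was detected on 1 of 3 vehicle arrays of the PFC and 0 of 3 of the HIP, and Adora2a on 0 of 3 of each.

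The regional pattern held in the animals given each drug. The NAc exceeded the mean of the PFC and HIP for 6 of 6 genes under Cpd-60, where 4.8% of probes were higher, for 6 of 6 under SAHA (5.63%) and for 6 of 6 under CI-994 (5.89%; limma, adjusted p under 0.05 in each). For Drd1a the ratio was 11.7 under Cpd-60, 13.0 under SAHA and 12.7 under CI-994. For Drd2 it was 5.84, 4.32 and 4.66 in the same order, over PFC and HIP levels that 2, 2 and 3 of 6 arrays detected, so these ratios rest on levels mostly not above background. Adora2a was detected on none of those arrays under Cpd-60 and SAHA, with ratios of at least 1.81 and at least 1.52, and on 1 of 6 under CI-994, with a measured ratio of 1.85. Ppp1r1b stood at 11.9, 11.3 and 14.2, Tac1 at 15.2, 10.7 and 12.2, and Rgs9 at 14.8, 11.6 and 15.7. Adora2a under each drug and Drd2 under CI-994 met the detection filter through the NAc alone. The ratios were not compared between drugs.

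Other genes of the same neurons and of their signalling were described by lists. Of 16 markers of medium spiny neurons of both kinds, 16 were higher in the NAc than in the PFC (median log2 difference 1.92) and 16 than in the HIP (2.35; limma, adjusted p under 0.05), where the median over all probes was near 0 and 9.59% and 9.6% were higher. The sodium channel subunit Scn4b was 17.4-fold above the HIP. The summed level of the list, the mean over its markers, was 10.06 to 10.32 in the vehicle NAc pools, 8.20 to 8.24 in the PFC and 7.76 to 7.80 in the HIP. Of 4 direct pathway markers tested, 3 were higher than in the PFC, led by the dynorphin precursor Pdyn (8.81-fold) and the transcription factor Isl1 (at least 5.98-fold), while Eya1 was lower in the NAc than in the HIP (log2 difference -0.36). Of 3 indirect pathway markers, 2 were higher, the enkephalin precursor Penk1 (6.37-fold) and the receptor Gpr6 (at least 3.21-fold).

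Of 11 genes of striatal cyclic AMP signalling, 7 were higher in the NAc than in the PFC and 9 than in the HIP, against the same 9.59% and 9.6% of probes. The G protein subunits Gng7 and Gnal, which couple the D1 and Adora2a receptors to adenylyl cyclase, were 7.04-fold and 4.41-fold above the PFC, and the phosphodiesterases Pde1b and Pde10a 5.12-fold and 3.70-fold. Pde10a was detected on 2 of 3 vehicle PFC arrays. The kinase subunit Prkar1b was lower (0.579 of the PFC level). Relatives and partners of the members followed no single direction: of 13 tested, 3 were higher and 4 lower than in the PFC, where 9.59% and 11.2% of all probes were. The adenosine A1 receptor gene Adora1 stood at 0.630 and the Rgs9 relative Rgs7 at 0.597 of the PFC level, while Gnb5, the G protein beta subunit that binds Rgs9, was 1.63-fold higher and Tacr1, the receptor of substance P, 1.47-fold higher. Tacr1 was detected on 1 of 3 vehicle PFC arrays, so its ratio rests on a level mostly not above background. Drd3 and Slc6a3, the dopamine transporter gene of dopamine neurons, were detected on 0 of 3 vehicle NAc arrays.

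Over the 36 arrays, the symbols whose level ran most like the mean of the 6 were Indo (Pearson r 0.996), Cart (0.993), Rarb (0.993), Pdyn (0.990), Cartpt (0.990), Serpina9 (0.990), Pcp4l1 (0.990), Rxrg (0.988), Pde1b (0.987) and Isl1 (0.986), among 18212 probes ranked. Cart and Cartpt are an older and the current symbol of the same gene. Arrays of a region share that region, so that r over 36 arrays describes the regional pattern. Over the 12 NAc arrays alone, 16481 probes were ranked and the 10 symbols were others, led by Lpl (0.968), Ivns1abp (0.944) and Gsg1l (0.940). Within the NAc, Adora2a (r 0.929), Tac1 (0.890), Rgs9 (0.775) and Ppp1r1b (0.717) ran closer to the mean of the other 5 genes than Drd2 (0.610) and Drd1a (0.510) did. These values are descriptions over arrays that also share BeadChip and depth.

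None of the 6 genes passed the test for any drug in the NAc. At an adjusted p under 0.05, 0 of 6 were called under Cpd-60, SAHA or CI-994, and likewise 0% of the 23242 probes tested in each comparison (limma, Benjamini-Hochberg). At an unadjusted p under 0.05, 0 of 6 were called in each by limma, where 4.77%, 2.05% and 1.99% of probes were, and Tukey's test gave 0 adjusted calls as well. The mean was lower than under vehicle for 4 of 6 genes under Cpd-60 (median log2 difference -0.01), for 6 of 6 under SAHA (-0.28) and for 6 of 6 under CI-994 (-0.14), whereas 51.6%, 50.5% and 49.9% of all probes were lower. Over all 10 member probes, 6 were lower under Cpd-60, 9 under SAHA and 7 under CI-994, counting a Tac1 probe that no array detected. Single pools moved these counts: without pool 3, 4 of 6 genes were lower under CI-994 and 2 of 6 under Cpd-60, and without pool 1, 6 of 6 under Cpd-60. The 3 drugs were compared with the same 3 vehicle pools and at different doses, so that their values stand side by side and were not compared with each other.

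Drd1a was at 10.87, 10.83 and 10.83 under Cpd-60, 11.04, 10.88 and 10.69 under SAHA and 11.22, 10.98 and 10.62 under CI-994. Each drug overlapped the vehicle pools, which held 10.83 to 11.04. The log2 differences were -0.12 (95% confidence interval -0.43 to 0.18), -0.10 (-0.41 to 0.21) and -0.03 (-0.34 to 0.28), the narrowest intervals of the 6 genes. Under CI-994 the sign turned to 0.13 without pool 3 and to 0.01 without vehicle pool 2.

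Drd2 was at 9.64, 9.06 and 8.99 under Cpd-60, 9.05, 8.74 and 8.57 under SAHA and 9.45, 8.86 and 8.38 under CI-994. The vehicle pools spread from 8.79 to 9.42 and all 3 drugs overlapped them. The differences were 0.15 (-0.45 to 0.76), -0.29 (-0.89 to 0.32) and -0.17 (-0.78 to 0.43). The sign turned to -0.05 under Cpd-60 without pool 1 and to 0.08 under CI-994 without pool 3, and the SAHA value was -0.11 without vehicle pool 3.

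Adora2a was at 7.80, 7.69 and 7.28 under Cpd-60, 7.53, 7.46 and 7.13 under SAHA and 7.68, 7.48 and 7.38 under CI-994. The 3 SAHA pools lay below the 3 vehicle pools (7.56 to 7.67) and the other drugs overlapped. The SAHA difference was -0.22 (-0.54 to 0.10; limma adjusted p = 1.00), against -0.01 under Cpd-60 and -0.08 under CI-994. Without pool 3 the SAHA difference was -0.10 and that of Cpd-60 0.15.

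Ppp1r1b was at 12.79, 12.65 and 11.84 under Cpd-60, 12.09, 12.73 and 11.71 under SAHA and 12.30, 12.41 and 12.27 under CI-994. All overlapped the vehicle pools, the lowest arrays being pool 3 of SAHA and of Cpd-60. The differences were -0.02 (-0.63 to 0.59), -0.27 (-0.88 to 0.34) and -0.12 (-0.73 to 0.49). Single pools decided their size: under SAHA the value was -0.54 without pool 2 and -0.04 without pool 3, and under Cpd-60 0.27 without pool 3 and -0.20 without pool 1. The probe ILMN_2651660 went the other way, by 0.42, 0.04 and 0.13, and ILMN_1253473 by 0.15, -0.28 and -0.14, none past the test, so the probes of Ppp1r1b did not give a common direction.

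Rgs9 was at 11.95, 11.59 and 11.19 under Cpd-60, 11.23, 11.95 and 10.80 under SAHA and 11.77, 11.62 and 11.56 under CI-994. Pool 2 of SAHA was above all vehicle pools (11.73 to 11.93) and its pools 1 and 3 below them. The differences were -0.25 (-0.81 to 0.32), -0.50 (-1.06 to 0.07; limma adjusted p = 1.00) and -0.17 (-0.74 to 0.40). Under SAHA the value depended on single pools, at -0.81 without pool 2 and -0.23 without pool 3, and so did that of Cpd-60, at -0.43 without pool 1 and -0.05 without pool 3.

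Tac1 was at 12.46, 12.12 and 11.56 under Cpd-60, 11.68, 11.79 and 11.36 under SAHA and 11.90, 11.88 and 11.40 under CI-994. All SAHA and all CI-994 pools lay below the vehicle pools (11.91 to 12.04), while those of Cpd-60 spanned them. The differences were 0.05 (-0.42 to 0.52) under Cpd-60, -0.39 (-0.86 to 0.08; limma adjusted p = 1.00) under SAHA and -0.27 (-0.74 to 0.20) under CI-994. Under Cpd-60 the value was -0.16 without pool 1 and 0.29 without pool 3, and without pool 3 those of SAHA and CI-994 were -0.27 and -0.11. Tac1 and Adora2a were thus 2 of 6 genes with all SAHA pools below vehicle, where 3.73% of probes were, Tac1 the 1 of 6 under CI-994, where 4% were, and there was 0 of 6 under Cpd-60, where 5.12% were.

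**Figure D3:**
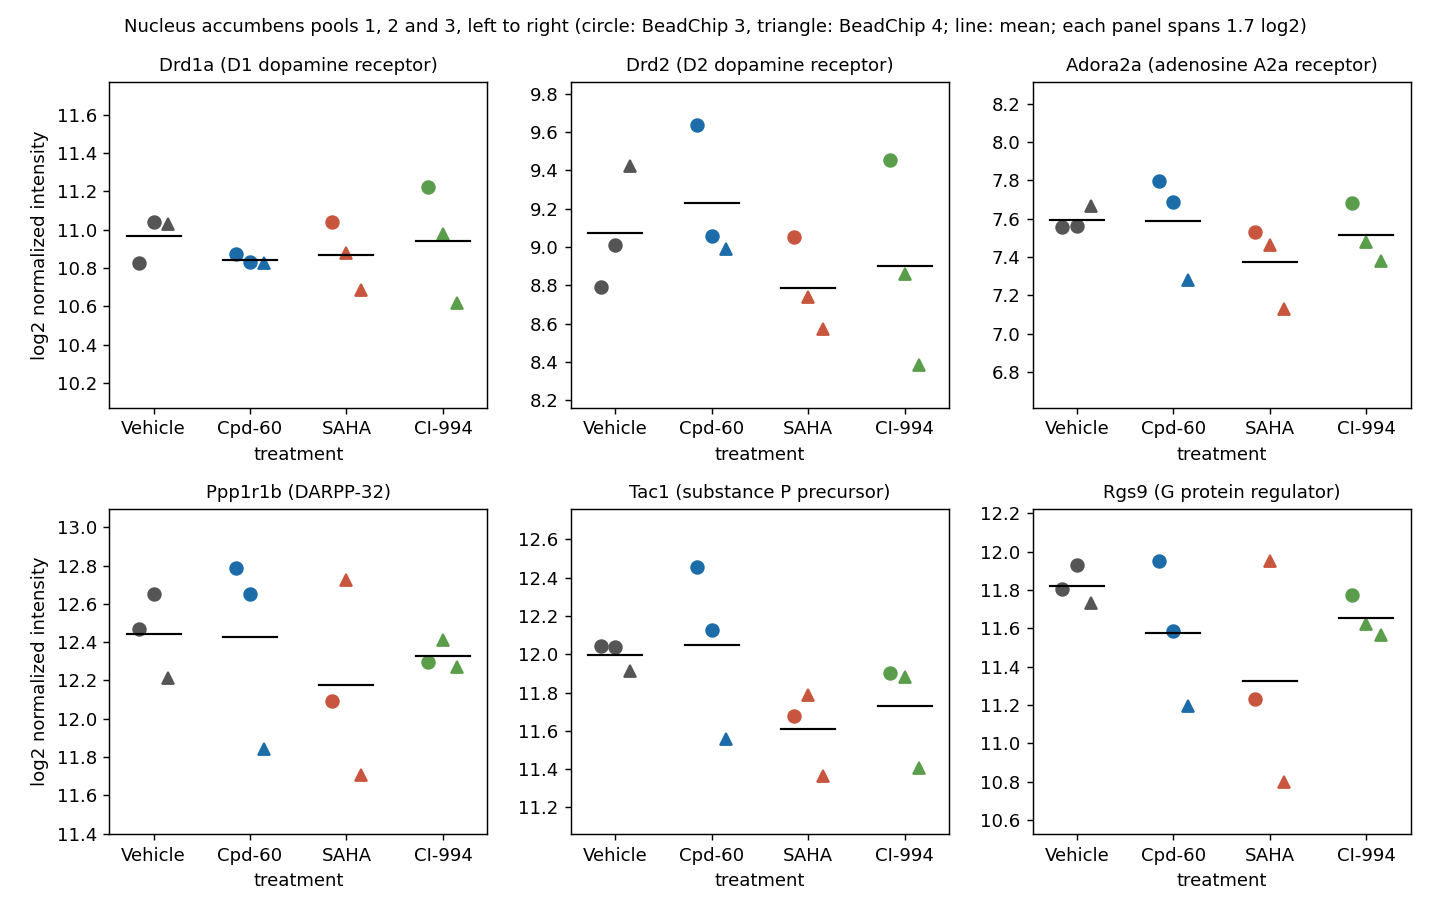
Normalized log2 intensity of the 6 genes in the NAc, each by its brightest probe, 1 point per pool of 2 mice, with the mean of each treatment as a line. The SAHA pools of Tac1 and Adora2a and the CI-994 pools of Tac1 lie below all vehicle pools, and all other groups overlap vehicle.

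**Figure D4:**
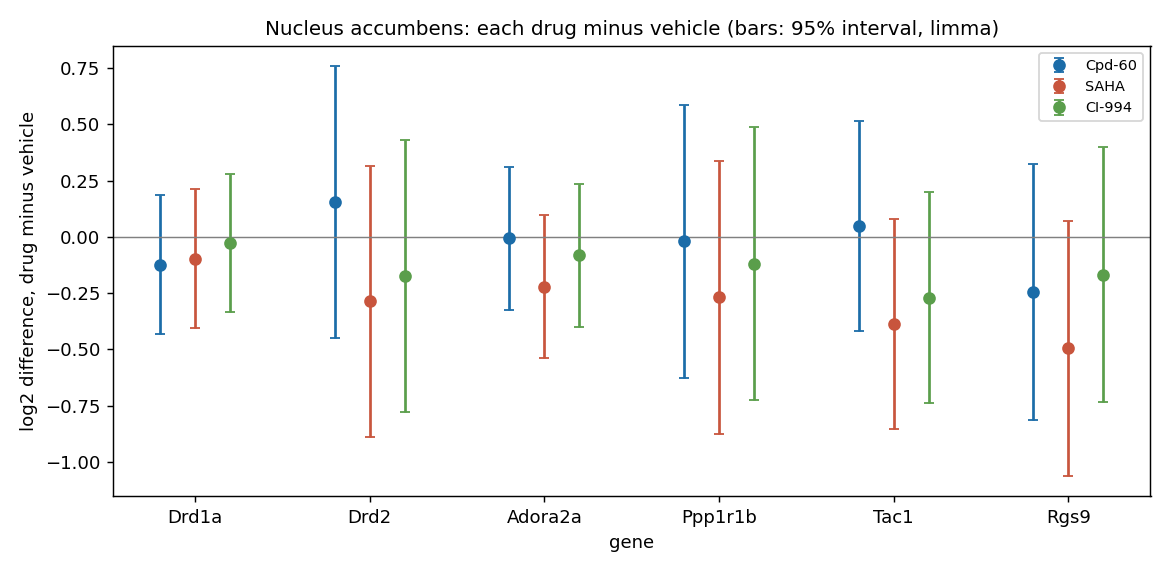
Log2 difference of each drug from vehicle in the NAc with its 95% confidence interval from limma, for the brightest probe of each gene. Every interval includes 0, and the largest difference is -0.50 for Rgs9 under SAHA.

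The dim probe of Rgs9, ILMN_1216553, differed most among the member probes. It was at 7.97, 7.76 and 7.77 under Cpd-60, against 8.48, 8.40 and 8.24 under vehicle, and at 7.98, 8.24 and 7.87 under SAHA and 8.58, 8.52 and 8.18 under CI-994. The Cpd-60 pools lay below the vehicle pools, and so did those of SAHA by a margin smaller than the spread between pools, while CI-994 overlapped. The log2 difference was -0.54 under Cpd-60 (SE 0.13; limma adjusted p = 0.942), -0.34 under SAHA (SE 0.13; adjusted p = 1.00) and 0.05 under CI-994. The Cpd-60 and SAHA differences passed an unadjusted p of 0.05 in limma but not the adjusted test. Of all probes, 2.7% were lower at that unadjusted p under Cpd-60 and 1.23% under SAHA. The Cpd-60 difference was -0.58 within the BeadChip that held pools 1 and 2 and -0.47 within the other, whereas the bright Rgs9 probe gave -0.10 and -0.54.

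The level of the 6 genes differed between pools of the same treatment. Relative to the vehicle mean, the mean of the 6 was -0.07, 0.06 and 0.01 in the vehicle pools, 0.27, 0.01 and -0.37 under Cpd-60, -0.21, -0.06 and -0.61 under SAHA and 0.07, -0.11 and -0.38 under CI-994. Pool 3 was the lowest of each drug, and on each of these 3 arrays 6 of 6 genes were below the vehicle mean, while pool 3 of vehicle was not low. Pool 1 of Cpd-60, the highest, was the array that detected the fewest probes of all 36 (31.9%) and had the lowest raw 95th percentile (349.9). Its part in the value was not tested. The NAc arrays lay on 2 BeadChips, with vehicle pools 1 and 2 on the first and pool 3 on the second. Within the first and then the second BeadChip, SAHA minus vehicle was -0.36 and -0.34 for Tac1, -0.64 and -0.36 for Rgs9, -0.03 and -0.37 for Adora2a, 0.15 and -0.77 for Drd2, 0.11 and -0.25 for Drd1a and -0.47 and 0.01 for Ppp1r1b. The sign was the same on both BeadChips for Tac1, Rgs9 and Adora2a. For SAHA and CI-994, each value sets 1 drug array against 2 vehicle arrays on the first BeadChip and 2 against 1 on the second. CI-994 minus vehicle was -0.14 and -0.27 for Tac1, -0.09 and -0.14 for Rgs9, 0.12 and -0.24 for Adora2a, 0.55 and -0.80 for Drd2, 0.29 and -0.23 for Drd1a and -0.26 and 0.13 for Ppp1r1b, with 1 sign on both BeadChips for Tac1 and Rgs9. Cpd-60 minus vehicle changed sign for Tac1 (0.25 and -0.35), Adora2a (0.18 and -0.39), Drd2 (0.45 and -0.43) and Ppp1r1b (0.16 and -0.37). It did not for Rgs9 (-0.10 and -0.54) and Drd1a (-0.08 and -0.20).

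The wider lists in the NAc likewise gave 0 adjusted calls. Of the 16 markers of medium spiny neurons of both kinds, 14 had a lower mean under SAHA (median log2 difference -0.29), 13 under CI-994 (-0.05) and 12 under Cpd-60 (-0.06). Over all probes, 50.5%, 49.9% and 51.6% had a lower mean in the same order. At an unadjusted limma p under 0.05, the transcription factor Foxp2 (-0.28) and the phosphoprotein gene Arpp21 (-0.32) were lower under SAHA. Over all probes, 1.23% were lower under SAHA at that p. Of the 11 cyclic AMP genes, 10 had a lower mean under SAHA (median -0.17), with Pde10a past the same unadjusted threshold at -0.48. Among the direct pathway genes Isl1 was lower under Cpd-60 (-0.29) at that threshold (limma adjusted p = 0.942), where 2.7% of all probes were.

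Markers of other cells also differed between the NAc arrays, and their part in the values above was not tested. The 6 astrocyte markers averaged 9.30 to 9.51 in the vehicle pools, 9.49 to 9.81 under SAHA, 9.48 to 9.76 under Cpd-60 and 9.40 to 9.47 under CI-994, with 4, 5 and 5 of 6 higher in mean under SAHA, Cpd-60 and CI-994. The 6 oligodendrocyte markers averaged 10.31 to 10.71 under vehicle and 10.15 to 10.37 under CI-994, where 5 of 6 were lower. The 4 choroid plexus markers averaged 6.76 to 6.96 under vehicle, 6.98 to 7.37 under SAHA and 6.99 to 7.61 under Cpd-60. The blood markers averaged 10.25 to 10.66 under vehicle, 9.94 to 10.21 under SAHA, 9.76 to 10.32 under Cpd-60 and 9.62 to 10.44 under CI-994. The Cpd-60 and CI-994 pools overlapped vehicle. Under each drug 3 of 3 blood markers had a lower mean, where 50.5% of all probes did under SAHA, 51.6% under Cpd-60 and 49.9% under CI-994. The medium spiny markers of both kinds averaged 10.06 to 10.32 under vehicle, 9.77 to 10.09 under SAHA, 10.07 to 10.34 under Cpd-60 and 9.85 to 10.41 under CI-994.

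**Figure D5:**
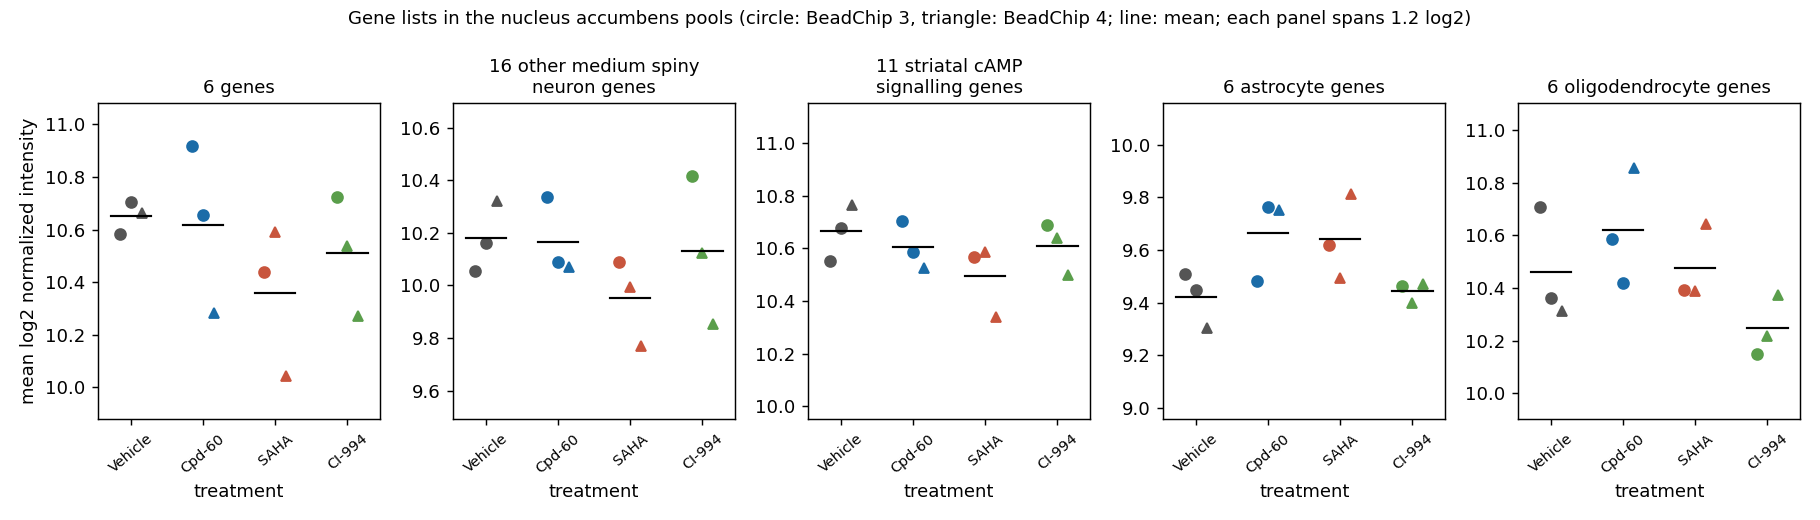
Mean log2 level of the 6 genes and of marker lists in the NAc, 1 point per pool, by treatment, with circles and triangles for the first and second BeadChip and lines for means. Under SAHA the markers of medium spiny neurons of both kinds reach down to 9.77, below the vehicle pools, and the astrocyte markers up to 9.81, above them. Both lists still overlap vehicle under SAHA. The astrocyte markers under Cpd-60 also reach above the vehicle pools, and the medium spiny markers under CI-994 below them.

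In the PFC and HIP, where these genes were low, 0 of the members tested were called for any drug after adjustment, as were 0% of all probes. Of the 6, 5 were tested in the PFC, without Adora2a, and 4 in the HIP, without Adora2a and Drd2. The median difference of all 6, those below the detection filter included, was 0.05, 0.03 and -0.07 in the PFC and -0.01, 0.09 and 0.01 in the HIP under Cpd-60, SAHA and CI-994. Drd1a in the HIP under SAHA was the only member past an unadjusted p of 0.05 by its brightest probe, while 5.19%, 2.25% and 3.98% of all probes in the PFC and 5.26%, 9.37% and 3.24% in the HIP passed it in the same order of drugs. It was at 6.69, 6.78 and 6.74 under SAHA and at 7.01, 7.08 and 7.05 under vehicle, so that the groups did not overlap and 0 of 3 SAHA arrays detected it against 3 of 3 vehicle arrays. The log2 difference was -0.31 (-0.46 to -0.16; limma adjusted p = 0.502), or vehicle at least 1.18-fold above SAHA, where 5.33% of probes were lower at that p and 10.8% of probes did not overlap in that direction. A dimmer Ppp1r1b probe, ILMN_1253473, lay below vehicle under SAHA in the HIP (-0.20), past the unadjusted but not the adjusted threshold. That probe was detected on 0 of 3 SAHA and 2 of 3 vehicle arrays, and the brightest Ppp1r1b probe went the other way (0.12). Pools 2 and 3 of SAHA in the HIP detected 32.1 and 32.3% of probes, the lowest of the 36 arrays after pool 1 of Cpd-60 in the NAc, and without them Drd1a differed by -0.35 with 1 SAHA array remaining, too few for a spread of its own.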

How the data were processed

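RNA was extracted with Trizol and a column clean-up with DNase, amplified to biotin-labelled cRNA and hybridized to Illumina MouseWG-6 BeadChips. What the authors deposited was each probe's unprocessed intensity (45281 probes, 36 arrays, linear scale, background included) with its detection p-value. Genes carry the symbols of that table, and the values of some list genes are not reported here. For Cpd-60, a pool that title and source call mice 3 and 4 is called mice 1 and 2 in its description, and the former was used.

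Arrays were quantile normalized together with limma 3.58.1 (R 4.3.3), floored at 1 and log2 transformed. Tested probes had a detection p no higher than 0.2 on each of the 3 arrays of at least 1 group in the fit. That is a reading of the methods' threshold of presence in all replicates. A fit held the 4 treatments of a region or the 3 regions of a treatment, so the passing group could lie outside the pair compared. Treatments were fitted within each region (12 arrays), regions within each treatment (9 arrays), with lmFit and eBayes and Benjamini-Hochberg adjustment over all probes tested, at 0.05. The code was tested on simulated data. An exact permutation test of 3 pools against 3 cannot go below 0.1 and was not used. Each gene is given by its brightest tested probe, and all probes of the members are reported. An "at least" fold sets an array that did not detect the probe to its lowest signal of a detected probe. Same-numbered pools of different regions are the same mice, yet their deviations from the group means correlated with a median r of -0.01 (-0.49 to 0.60, 36 pairs). The members and lists were chosen with earlier results of these data known. Promoter windows and gene positions are from RefSeq, on GRCm38.p6, and 4 of 6 members were listed, without Adora2a and Ppp1r1b.

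Alternatives were neqc normalization, normalization by region, 27 arrays without CI-994, other detection filters, BeadChip or pool as a block, Tukey's test, other probes and leaving out each pool.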

Additional observations from a re-analysis of the deposited data

How the results depend on the processing

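The number of members called was the same under the alternatives run in these comparisons: 0 in the NAc for each of Cpd-60, SAHA and CI-994, 0 over the 6 drug comparisons in the PFC and HIP, 6 for the NAc against the PFC and 6 against the HIP, and 18 of 18 over the 3 drugs. For the PFC against the HIP under vehicle it was 2, but 1 without pool 2 and 3 without pool 3. With the replicate block, the pool number as a fixed block, the counts of the first list stayed 0, 0, 6, 6 and 18. Between treatments a number names no shared animals, yet the deviations of same-numbered pools within a region correlated with a median r of 0.25, against -0.148 for different numbers, and in the NAc of 0.442 (14 of 18 pairs over 0.1) against -0.376. In the NAc, all arrays of pool 1 shared a BeadChip and so did all of pool 3. Of the 18 member differences in the NAc, 255 alternative values held 16 changes of sign and 0 calls, and in the PFC and HIP 385 values held 41 and 0. Between regions, 348 values held 5 changes of sign, in the small differences of PFC against HIP. The largest change of size came from background correction, given beside the folds. The calls over all probes moved more than those of the members: the NAc against the PFC gave 4698, from 1437 without pool 2 to 6770 without pool 3, and against the HIP 4040, from 1233 to 7646 likewise. Leaving out Cpd-60 pool 3 gave 2 probes past the adjusted threshold in the NAc, neither a member. The fit without the pair of dimmest SAHA arrays of the HIP was chosen after seeing the data. With 3 pools a group, intervals in the NAc reach about 0.3 to 0.6 on either side.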
